A study of Mus musculus with 17 samples.

Results

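The transcripts described here are those of the NF-kappaB transcription factor subunits and of their inhibitors. Nfkb1, Nfkb2, Rel, Rela and Relb stand on the side of the subunits, and Nfkbia, Nfkbie, Nfkbiz and Tnfaip3 on the side of the inhibitors. Nfkbiz is grouped there by its family, though its product works with NF-kappaB (below). All probe sets annotated to exactly 1 of these 9 genes were taken, which gave 12 of the 45037 probe sets on the arrays and covered 8 of the genes. Nfkb1 was not analysed here. Nfkbiz had 3 probe sets, Nfkbie and Tnfaip3 had 2 each, and the others had 1. Probe sets of the same gene share their target, so they are not independent measurements.

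Sorted mouse cells were profiled on 17 Affymetrix arrays. The macrophages (3 pools, sorted as CD11c-CD11b+MCSFR+) and the granulocytes (3 pools, sorted as CD11c-CD11b+Ly6C+MCSFR-) came from spleens of wild-type mice. The other 4 groups are myelo-dendritic progenitors (MDPs) of bone marrow, regarded as a shared precursor of macrophages and dendritic cells, and all were gated as lineage-sca1-CD127-CD117+MCSFR+. MCSFR is the receptor for M-CSF, the growth factor of this lineage. Among the MDPs, 3 pools are labelled IRF8 knockout, 2 pools are labelled negative for the VENUS reporter, 3 pools positive for it and 3 pools wild-type. IRF8 is a transcription factor of the macrophage and dendritic lineage. Knockout, VENUS-negative and VENUS-positive MDPs all bear the genotype label IRF8-deficient, and the titles call the VENUS-negative pools IRF8_neg_MDP and the VENUS-positive ones IRF8_PAC_MDP. The labels do not describe the reporter allele, nor how many mice stand behind a VENUS pool. Other pools combined 5 mice each. The study set wild-type against IRF8-deficient MDPs and read mature cell signatures from the spleen populations, and its dendritic cells were not analysed here. All mice were 6 to 10 weeks old, and their strain, sex and any array batch were not stated.

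NF-kappaB factors are dimers of Rel-domain proteins that wait in the cytoplasm of resting cells. RelA and c-Rel (from Rel) carry their own activation domains and serve the fast canonical pathway, while RelB and the p52 product of Nfkb2 serve the slower alternative one. IkappaB-alpha (Nfkbia) and IkappaB-epsilon (Nfkbie) hold the dimers back until the IkappaB kinase (IKK) marks them for destruction. IkappaB-zeta (Nfkbiz) is a nuclear relative that works with NF-kappaB at secondary response genes, and A20 (Tnfaip3) is a ubiquitin-editing enzyme that shuts the upstream signal off. Several of these genes are themselves textbook targets of NF-kappaB and so form negative feedback loops in macrophages and neutrophils.

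The promoter windows are shown because that feedback runs through kappaB sites at the genes' own starts. RefSeq windows (GRCm38.p6, 250 bases before to 50 after a transcript start) were held for 6 of the genes, Nfkb2, Rel, Rela, Nfkbia, Nfkbie and Tnfaip3. They were searched on both strands for the kappaB consensus. A match was found in 7 of their 9 windows, belonging to 5 genes, against 2779 of 32851 windows of all genes (8.46%). The windows of 1 gene can overlap, and a pair of Nfkb2 windows holds the same GGGACTTTCC. The sequences below run 5′ to 3′ on the strand of the gene, and capitals mark bases covered by a match. They come from chr19:46304487-46304786 (plus strand) for Nfkb2, chr11:23770920-23771219 (minus strand) for Rel, chr12:55492598-55492897 (minus strand) for Nfkbia, chr17:45555450-45555749 (plus strand) for Nfkbie and chr10:19015361-19015660 (minus strand) for Tnfaip3.
Nfkb2: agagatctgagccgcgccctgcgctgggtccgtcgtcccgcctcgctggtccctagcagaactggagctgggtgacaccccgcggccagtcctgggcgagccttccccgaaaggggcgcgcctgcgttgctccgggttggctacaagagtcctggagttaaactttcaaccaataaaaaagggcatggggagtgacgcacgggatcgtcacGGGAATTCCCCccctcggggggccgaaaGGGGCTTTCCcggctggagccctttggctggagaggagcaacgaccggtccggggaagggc
Rel: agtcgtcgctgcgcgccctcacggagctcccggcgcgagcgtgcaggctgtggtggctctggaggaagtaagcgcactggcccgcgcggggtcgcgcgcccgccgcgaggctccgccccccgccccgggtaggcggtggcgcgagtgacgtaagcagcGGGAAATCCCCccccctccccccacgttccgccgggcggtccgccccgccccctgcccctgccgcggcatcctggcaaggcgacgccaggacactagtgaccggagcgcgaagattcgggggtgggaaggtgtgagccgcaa
Nfkbia: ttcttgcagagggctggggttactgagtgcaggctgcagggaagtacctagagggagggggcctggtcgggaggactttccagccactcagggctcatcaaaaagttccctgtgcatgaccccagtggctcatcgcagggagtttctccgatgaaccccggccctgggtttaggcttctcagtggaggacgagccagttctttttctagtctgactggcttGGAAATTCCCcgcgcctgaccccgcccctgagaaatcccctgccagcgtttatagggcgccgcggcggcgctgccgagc
Nfkbie: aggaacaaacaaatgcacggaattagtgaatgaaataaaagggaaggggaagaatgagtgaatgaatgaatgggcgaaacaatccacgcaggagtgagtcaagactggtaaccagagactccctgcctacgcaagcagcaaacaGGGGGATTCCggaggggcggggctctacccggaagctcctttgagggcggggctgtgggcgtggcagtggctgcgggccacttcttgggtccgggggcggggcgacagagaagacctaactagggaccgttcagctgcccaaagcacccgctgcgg
Tnfaip3: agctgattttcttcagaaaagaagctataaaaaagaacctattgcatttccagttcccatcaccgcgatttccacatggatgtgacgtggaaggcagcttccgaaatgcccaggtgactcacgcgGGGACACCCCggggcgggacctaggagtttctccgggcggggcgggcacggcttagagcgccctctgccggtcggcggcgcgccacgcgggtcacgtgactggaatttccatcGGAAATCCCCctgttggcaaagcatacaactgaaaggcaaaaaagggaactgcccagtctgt
In the Nfkbia window the match GGAAATTCCC starts 29 bases before the transcript start, and in Tnfaip3 the nearer match, GGAAATCCCC, starts 12 bases before it. The runs in Nfkb2 and Rel that are longer than the consensus are overlapping matches. The Rela window and the other Tnfaip3 window held no match. A match is a description of the letters in a window and not evidence of a bound site.

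Levels are the authors' log2 values made by the RMA method, and a level of 1 probe set is not set against that of another. Differences are in log2 units, the first-named group minus the second, from 1 limma fit over all 17 arrays and all 45037 probe sets. A probe set was called at a Benjamini-Hochberg adjusted p under 0.05. A fold is given where both means lay above 4.48, the highest array median. Irf8, the targeted gene, was checked first. It stood at 10.31 ± 0.12 in the knockout-labelled and 10.34 ± 0.19 in the wild-type MDPs (SD, n = 3 each), and at 5.87 ± 0.54 in the VENUS-negative (n = 2) and 10.88 ± 0.19 in the VENUS-positive MDPs (n = 3). Which part of the gene was disrupted was not stated, so its probe sets do not check the knockout label, and that group is called knockout-labelled. The VENUS groups are defined by the reporter, so their Irf8 difference is a check of the labels and not a finding.

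Marker genes showed which pools stand apart. Csf1r, the M-CSF receptor gene, was at 9.70 to 9.93 in macrophages but also at 7.16 to 8.56 in the granulocytes sorted without its protein, and at 4.83 to 5.09 in the VENUS-negative MDPs sorted with it. The neutrophil gene S100a8 was at 8.69 to 10.78 in macrophages and 13.11 to 13.47 in granulocytes. Of the 9 neutrophil genes measured, 7 were called lower in macrophages than in granulocytes and 0 higher. Against wild-type MDPs, 2 of the 9 were called higher in macrophages and 0 lower. S100a8 was not called in either comparison, so its level does not stand for the list. Granulocytes also carried NK-cell genes, with a mean over 8 such genes of 6.60 to 7.38 against 4.77 to 4.93 in macrophages. Macrophages, sorted as CD11c-, carried dendritic cell genes, with a mean over 6 such genes of 6.38 to 6.75. That mean was 4.38 to 5.12 in granulocytes and 4.60 to 4.85 in wild-type MDPs. The part of these transcripts in the macrophage levels was not tested. Wild-type MDP pool 3 read 11.87 for S100a8, against 6.22 and 3.62 in wild-type pools 1 and 2. The mean of 9 erythroid and megakaryocyte genes was 9.40 to 10.36 in the VENUS-negative, 5.58 to 6.03 in the VENUS-positive, 4.18 to 4.36 in the knockout-labelled and 5.79 to 8.74 in the wild-type MDPs, the last of these highest in pool 3. In sorted pools, fewer cells of a type and less RNA per cell cannot be told apart.

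**Figure D1:**
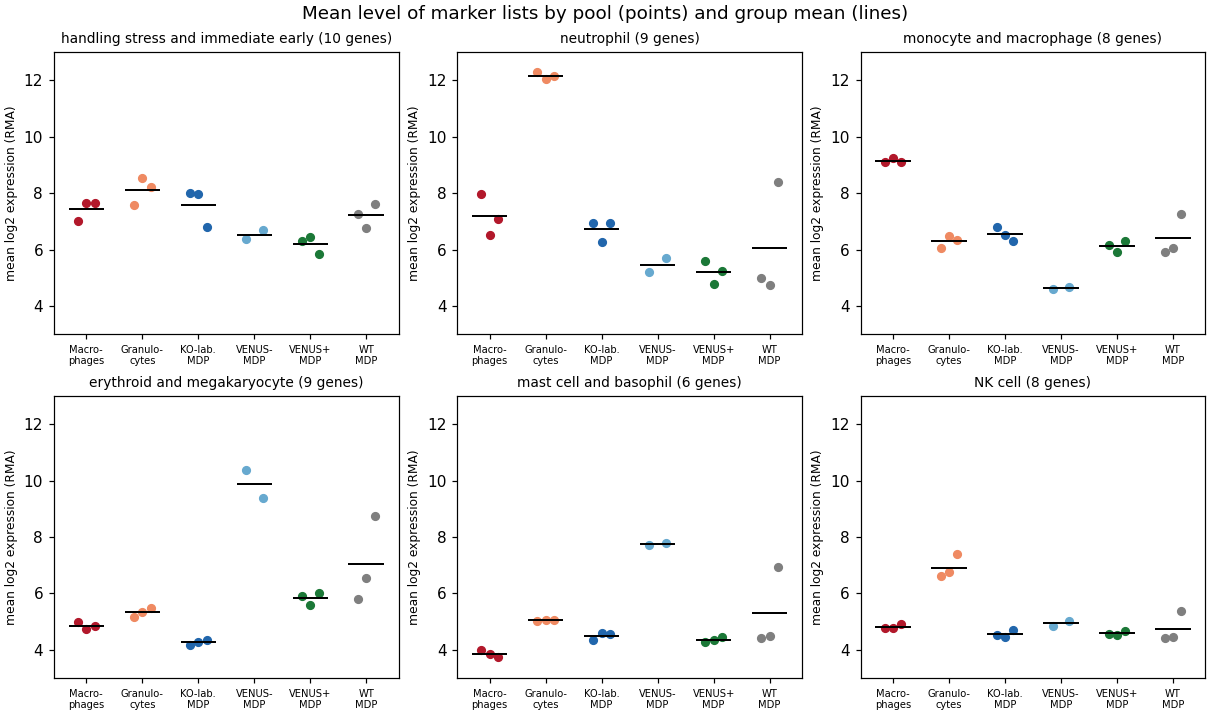
Mean log2 level of 6 marker lists (y axis) in each pool (points) of the 6 groups (x axis), with group means as lines. The VENUS-negative pools lie highest for the erythroid and megakaryocyte list, at 9.40 to 10.36, and wild-type MDP pool 3 lies above the other wild-type pools in every list drawn.

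The mature spleen cells carried more transcript of most of these genes than the wild-type progenitors did. In macrophages 10 of the 12 probe sets, of 6 genes, were higher than in wild-type MDPs and 0 were lower, where 18.9% of all probe sets were called, 9.61% higher and 9.28% lower. In granulocytes 8 of 12, of 5 genes, were higher and 0 lower, where 38.4% of all probe sets were called, 20.4% higher and 17.9% lower. The pools did not overlap with those of wild-type MDPs for 11 of the 12 probe sets in macrophages, against 39.8% of all probe sets, and for 9 in granulocytes, against 48.8%. The median difference of the 12 was 1.75 for macrophages and 1.10 for granulocytes, beside 0.00 and 0.11 over all probe sets. Both comparisons use the same 3 wild-type MDP pools. Spleen against bone marrow cannot be told apart from mature against progenitor cell. Without wild-type pool 3 the counts were 9 and 7 of 12.

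Some of the probe sets also differed between macrophages and granulocytes, and not in 1 direction. Of the 12 probe sets 5 were called, where 24.9% of all probe sets were (13.6% higher and 11.3% lower). With 1 probe set a gene 3 of the 8 genes were called, beside 5337 of all 17097, which is near that share. Both Nfkbie probe sets, 1 of Tnfaip3 and that of Nfkb2 were higher in macrophages, and 1 of Nfkbiz was lower. The pools of the 2 populations did not overlap for 9 of the 12 probe sets, against 44.5% of all probe sets.

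**Figure D2:**
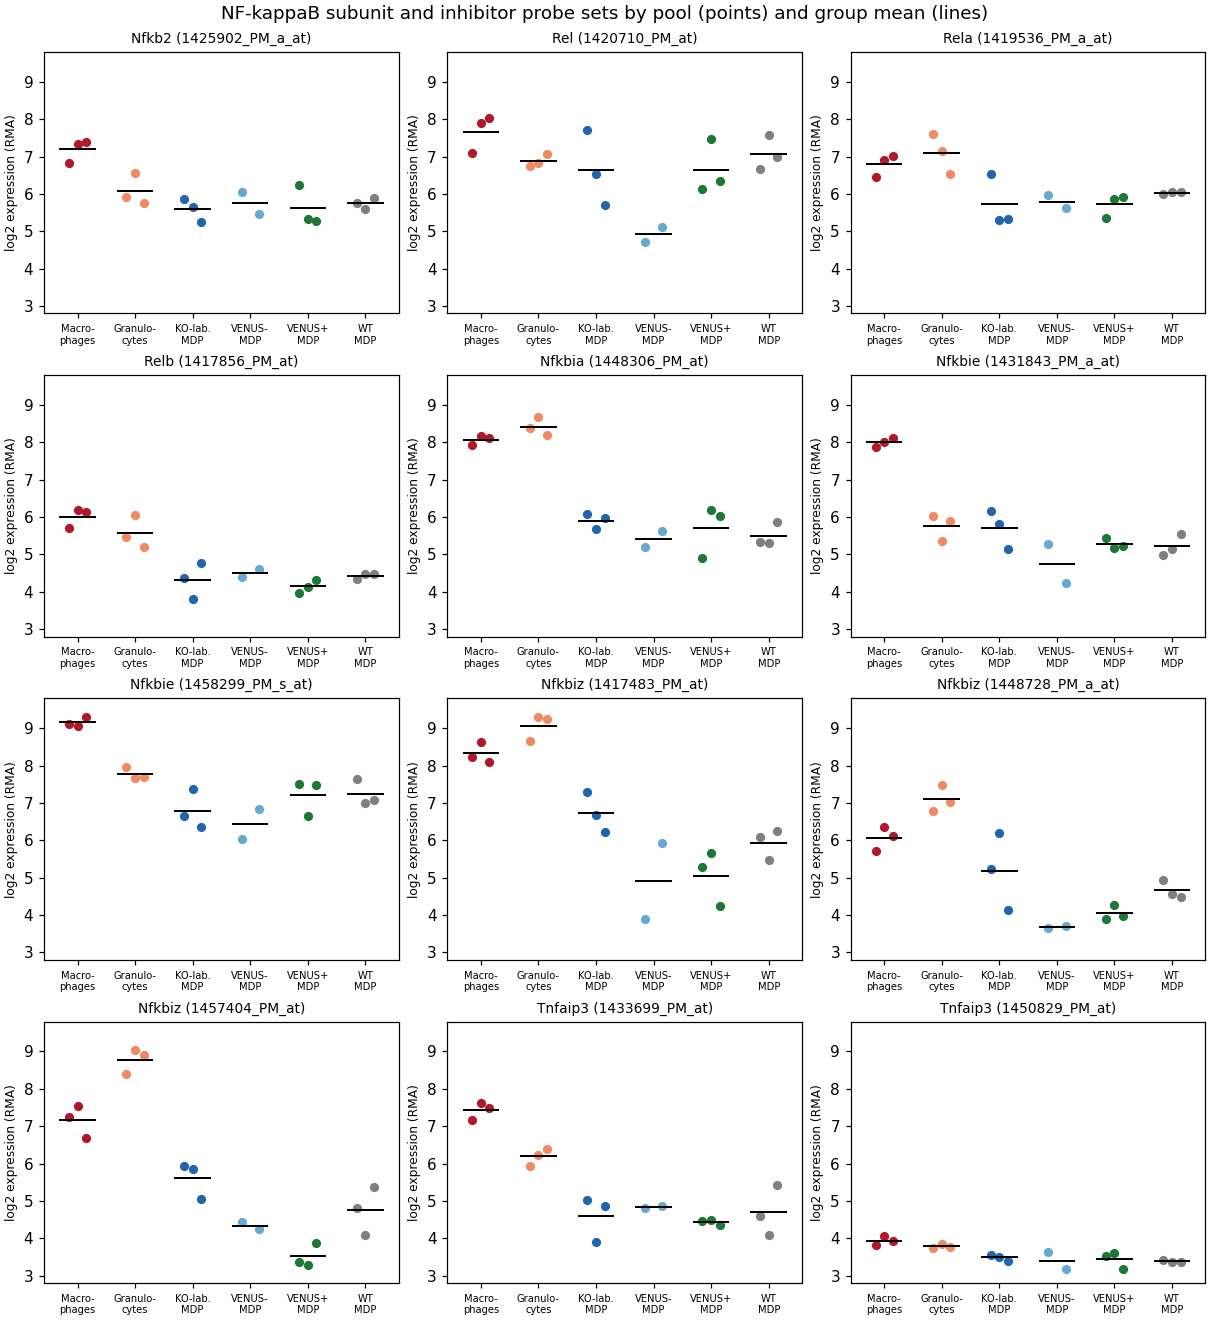
Log2 level (y axis) of the 12 probe sets, 1 panel each, in every pool (points) of the 6 groups (x axis), with group means as lines. Nfkbia and Nfkbiz have their highest group means in the mature spleen cells, and Nfkbie lies highest in macrophages. By its probe set 1431843_PM_a_at Nfkbie is at 7.87 to 8.13 in macrophages against 5.37 to 6.03 in granulocytes.

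Among the subunits, Nfkb2, which encodes the p100 precursor of p52, was highest in macrophages. Its levels were 6.83, 7.34 and 7.40 in macrophages, 5.91, 6.57 and 5.75 in granulocytes and 5.76, 5.61 and 5.90 in wild-type MDPs. Every macrophage pool lay above every pool of the other 5 groups, which overlapped along the order. The difference was 1.43 between macrophages and wild-type MDPs (SE 0.29, adjusted p = 0.00235, 2.70-fold) and 1.12 between macrophages and granulocytes (SE 0.29, adjusted p = 0.0108, 2.17-fold). The second of these was lost without granulocyte pool 3 (0.95, adjusted p = 0.0505) or after a second quantile normalization (0.84, adjusted p = 0.0599). Granulocytes and wild-type MDPs differed by 0.32, which was not called (adjusted p = 0.414).

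Relb, the partner of p52 in the alternative pathway, was higher in both mature populations. It read 5.70, 6.19 and 6.15 in macrophages and 5.46, 6.05 and 5.21 in granulocytes, against 4.34, 4.49 and 4.48 in wild-type MDPs. The spleen pools overlapped with each other and lay above all 11 MDP pools, the highest of which stood at 4.77. The differences from wild-type MDPs were 1.58 for macrophages (SE 0.24, adjusted p = 2.94e-04) and 1.14 for granulocytes (SE 0.24, adjusted p = 0.00192). The MDP levels lay close to the array medians of 4.33 to 4.48, so no fold is given.

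Rela and Rel encode the canonical activators. Rela was at 6.45, 6.90 and 7.03 in macrophages, 7.60, 7.16 and 6.53 in granulocytes and 5.99, 6.05 and 6.06 in wild-type MDPs. Both spleen populations lay above the wild-type MDPs without overlap, but only the granulocyte difference was called (1.06, SE 0.32, adjusted p = 0.0172, 2.08-fold), against 0.76 for macrophages (adjusted p = 0.129). The granulocyte call was lost without granulocyte pool 1 (0.81, adjusted p = 0.0730) or pool 2 (1.03, adjusted p = 0.0501). Rel read 7.09, 7.89 and 8.02 in macrophages, 6.74, 6.83 and 7.06 in granulocytes and 6.66, 7.57 and 7.0 in wild-type MDPs. The macrophage and wild-type ranges overlapped, as did those of granulocytes and wild-type MDPs, while macrophages lay just above granulocytes. None of its 3 differences among these groups was called (0.59, -0.20 and 0.79, with adjusted p between 0.224 and 0.755).

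Nfkbia, the classical feedback inhibitor, was much higher in both mature populations. The levels were 7.94, 8.17 and 8.12 in macrophages and 8.40, 8.69 and 8.19 in granulocytes, against 5.33, 5.31 and 5.86 in wild-type MDPs. No spleen pool came near the MDP pools, whose highest value in any MDP group was 6.20. The difference was 2.57 for macrophages (SE 0.29, adjusted p = 1.58e-05, 5.95-fold) and 2.92 for granulocytes (SE 0.29, adjusted p = 1.68e-06, 7.59-fold). Between macrophages and granulocytes it was -0.35 (95% interval -0.96 to 0.26, adjusted p = 0.407). Those pools did not overlap, yet the difference was not called.

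Nfkbie, the epsilon inhibitor, set macrophages apart from every other group. Its probe set 1431843_PM_a_at read 7.87, 8.02 and 8.13 in macrophages, 6.03, 5.37 and 5.90 in granulocytes and 4.99, 5.14 and 5.55 in wild-type MDPs. Probe set 1458299_PM_s_at read 9.11, 9.06 and 9.31 in macrophages, 7.97, 7.67 and 7.68 in granulocytes and 7.65, 7.01 and 7.07 in wild-type MDPs. By Affymetrix's naming an s in the suffix marks a set that can match more than 1 gene, while an a marks several transcripts of the same gene. In both probe sets the macrophages were clear of all other pools. Macrophages exceeded wild-type MDPs by 2.78 (SE 0.29, adjusted p = 8.53e-06, 6.86-fold) and 1.92 (SE 0.29, adjusted p = 2.74e-04, 3.77-fold). They exceeded granulocytes by 2.24 (SE 0.29, adjusted p = 4.70e-05, 4.72-fold) and 1.39 (SE 0.29, adjusted p = 0.00293, 2.62-fold). Granulocytes differed from wild-type MDPs by 0.54 and 0.53, neither called (adjusted p = 0.155 and 0.174).

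Nfkbiz, the nuclear co-regulator, was highest in granulocytes by all 3 of its probe sets. Probe set 1457404_PM_at read 7.26, 7.54 and 6.68 in macrophages, 8.39, 9.03 and 8.90 in granulocytes and 4.82, 4.10 and 5.38 in wild-type MDPs. Probe set 1417483_PM_at read 8.22, 8.64 and 8.11 in macrophages, 8.67, 9.30 and 9.25 in granulocytes and 6.10, 5.46 and 6.25 in wild-type MDPs. Probe set 1448728_PM_a_at read 5.72, 6.36 and 6.12 in macrophages, 6.79, 7.47 and 7.04 in granulocytes and 4.94, 4.56 and 4.50 in wild-type MDPs. Each probe set ordered granulocytes over macrophages over wild-type MDPs without overlap. The granulocyte difference from wild-type MDPs was 4.0 in 1457404_PM_at (SE 0.33, adjusted p = 3.53e-07, 16.0-fold), the widest of the 12, and 3.13 and 2.43 in the other two (8.78-fold and 5.40-fold, adjusted p = 9.53e-05 and 1.26e-04).

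For macrophages against wild-type MDPs the 3 Nfkbiz differences were 2.39, 2.39 and 1.40, all called, with folds of 5.26, 5.23 and 2.65. The smallest, in 1448728_PM_a_at, had an adjusted p of 0.0155 and lost its call without macrophage pool 2 (0.0707) or wild-type pool 3 (0.0538). Between macrophages and granulocytes the difference was called in 1457404_PM_at (-1.61, SE 0.33, adjusted p = 0.00245, 3.05-fold). It was -1.03 in 1448728_PM_a_at (adjusted p = 0.0597) and -0.75 in 1417483_PM_at (adjusted p = 0.273). The difference in 1448728_PM_a_at was called under 4 of the alternatives (adjusted p = 0.0185 to 0.0420), and the cause was not tested. Across the 17 arrays the 3 probe sets correlated with each other at r = 0.92 to 0.93, a description over pools of different cell types.

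Tnfaip3, the A20 gene, stood highest in macrophages and second in granulocytes. Probe set 1433699_PM_at read 7.18, 7.62 and 7.48 in macrophages, 5.94, 6.24 and 6.40 in granulocytes and 4.60, 4.09 and 5.43 in wild-type MDPs. These 3 groups did not overlap. Macrophages exceeded wild-type MDPs by 2.72 (SE 0.31, adjusted p = 2.07e-05, 6.59-fold) and granulocytes by 1.23 (SE 0.31, adjusted p = 0.00942, 2.34-fold). Granulocytes exceeded wild-type MDPs by 1.49 (SE 0.31, adjusted p = 0.00155, 2.81-fold). The other probe set, 1450829_PM_at, was dim, at 3.16 to 4.06 on all 17 arrays, under every array median. Its differences of 0.55 and 0.40 from wild-type MDPs were called (adjusted p = 0.0129 and 0.0396), but the granulocyte one was lost without any 1 of the 6 pools (adjusted p = 0.0562 to 0.104). The macrophage one was lost without macrophage pool 2 (0.0642).

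**Figure D3:**
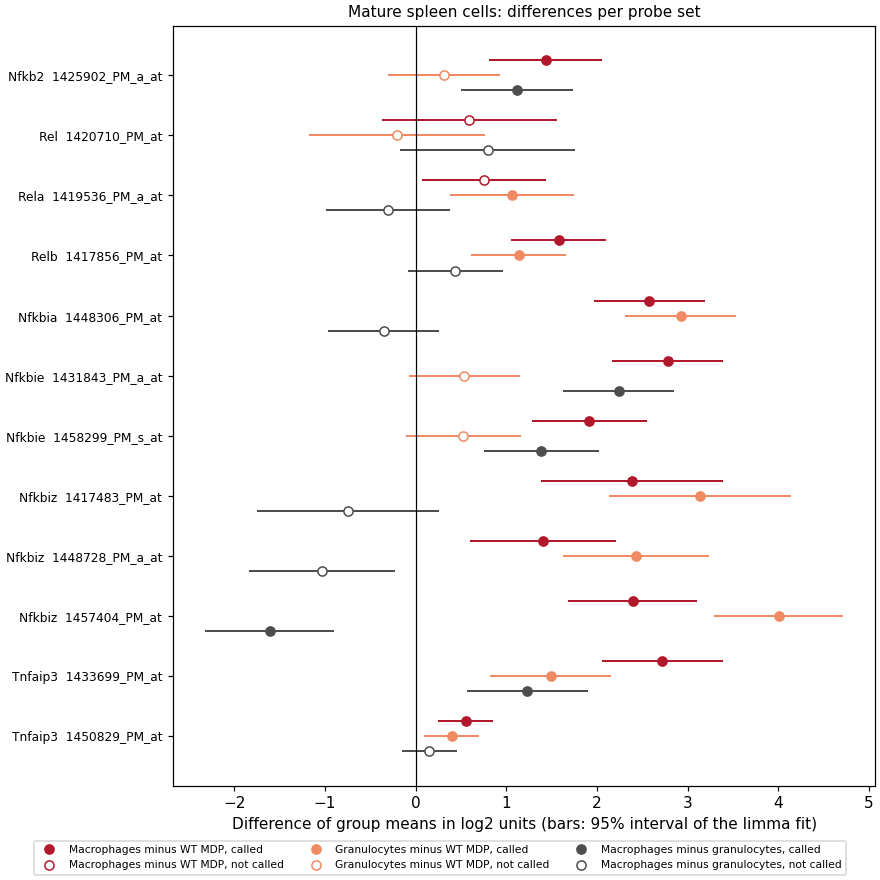
Difference of group means in log2 units (x axis, bars are 95% intervals) for the 12 probe sets (y axis) in the 3 comparisons of mature spleen cells, with filled points where the difference was called. Macrophages minus wild-type MDPs lie to the right of 0 for all 12, up to 2.78 for Nfkbie, and granulocytes reach 4.0 for Nfkbiz.

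Immediate early and stress genes, which respond within minutes to handling, were read beside these genes. The mean of the 10 genes measured was 6.99 to 7.66 in macrophages, 7.58 to 8.54 in granulocytes and 6.76 to 7.63 in wild-type MDPs. Of the list 3 genes were higher and 2 lower in macrophages than in wild-type MDPs. Of all genes (1 probe set each) 10.9% were higher and 11.5% lower there. In granulocytes 5 were higher and 3 lower, where 21.3% of all genes were higher and 22.6% lower. The part of handling in the differences of either population was not tested.

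Within the progenitors, 0 of the 12 probe sets were called between knockout-labelled and wild-type MDPs by limma, where 0.575% of all probe sets were. At an unadjusted p under 0.05 there was 1 of 12, an Nfkbiz probe set, against 8.06% of all probe sets, and the pools did not overlap for 0 of the 12, against 13.6% of all probe sets. The median difference was 0.00, and 6 of the 12 were above 0. Between VENUS-negative and VENUS-positive MDPs 0 were called, where 4.44% of all probe sets were, with 3 of 12 at an unadjusted p under 0.05, against 6754 of all 45037 probe sets. Between VENUS-positive and wild-type MDPs 0 of the 12 and 0 of all 45037 probe sets (0%) were called, with 1 of 12 and 2661 of all (5.91%) at an unadjusted p under 0.05. The pools did not overlap for 4 of the 12, against 9.70% of all probe sets. An intensity trend in the variance model called 2 of all probe sets there.

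The Nfkbiz probe sets were all above 0 in knockout-labelled minus wild-type MDPs, without a call. Probe set 1457404_PM_at read 5.94, 5.86 and 5.04 in knockout-labelled against 4.82, 4.10 and 5.38 in wild-type MDPs, a difference of 0.84 (95% interval 0.13 to 1.56, adjusted p = 0.477). Probe set 1417483_PM_at read 7.30, 6.67 and 6.23 in knockout-labelled against 6.10, 5.46 and 6.25 in wild-type MDPs, a difference of 0.80 (95% interval -0.21 to 1.80, adjusted p = 0.779). Only 1 knockout-labelled pool in each probe set fell within the wild-type range. Probe set 1448728_PM_a_at differed by 0.53, with 5.24, 6.21 and 4.13 in knockout-labelled and 4.94, 4.56 and 4.50 in wild-type MDPs. The VENUS-positive pools read 3.37, 3.29 and 3.89 in 1457404_PM_at. Their difference from wild-type MDPs was -1.25 (95% interval -1.97 to -0.54, adjusted p = 0.563), and their pools lay below all wild-type pools.

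The order of group means in 1457404_PM_at, from knockout-labelled over wild-type and VENUS-negative to VENUS-positive MDPs, was also that of the stress and immediate early list. In the other two Nfkbiz probe sets the VENUS-positive mean lay above the VENUS-negative one, unlike the list. The list's mean was 8.0, 7.97 and 6.79 in knockout-labelled, 6.36 and 6.69 in VENUS-negative, 6.29, 6.45 and 5.85 in VENUS-positive and 7.26, 6.76 and 7.63 in wild-type MDPs. Fos, an immediate early transcription factor gene, read 10.87, 10.33 and 9.14 in knockout-labelled, 7.11 and 8.76 in VENUS-negative, 7.71, 8.44 and 6.40 in VENUS-positive and 9.83, 9.49 and 9.89 in wild-type MDPs. The part of handling in the Nfkbiz levels was not tested.

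Rel gave the widest difference between the VENUS groups. It read 4.71 and 5.12 in VENUS-negative against 6.14, 7.46 and 6.35 in VENUS-positive MDPs, so the pools did not overlap. The VENUS-negative pools were also the lowest of all 17 arrays. The difference was -1.73 (SE 0.50, 95% interval -2.81 to -0.65, 3.32-fold, adjusted p = 0.0736), which missed the threshold. When dim probe sets were left out before the adjustment it was called (adjusted p = 0.0449). In knockout-labelled pools Rel spread widely, at 7.70, 6.52 and 5.69, against 6.66, 7.57 and 7.0 in wild-type pools (difference -0.44, 95% interval -1.41 to 0.53). The erythroid and megakaryocyte markers were high in the same VENUS-negative pools. The mean of the mast cell and basophil list was also higher there, at 7.73 to 7.79 against 4.27 to 4.46 in VENUS-positive MDPs. That of the monocyte and macrophage list was lower, at 4.60 to 4.66 against 5.92 to 6.29. The part of these cell contents in the Rel level was not tested.

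The inhibitors differed by less between the VENUS groups. Nfkbie in 1458299_PM_s_at read 6.04 and 6.83 in VENUS-negative against 7.52, 6.66 and 7.49 in VENUS-positive MDPs, and the pools overlapped. In 1431843_PM_a_at it read 5.27 and 4.24 in VENUS-negative against 5.45, 5.17 and 5.22 in VENUS-positive MDPs, again with overlap. Nfkbia read 5.20 and 5.63 in VENUS-negative against 4.89, 6.20 and 6.04 in VENUS-positive MDPs. For Nfkbiz, 1457404_PM_at read 4.44 and 4.25 in VENUS-negative MDPs, above all VENUS-positive pools, while 1417483_PM_at read 3.90 and 5.92 in VENUS-negative against 5.29, 5.65 and 4.24 in VENUS-positive MDPs and overlapped. In 1448728_PM_a_at the VENUS-negative pools lay below, at 3.65 and 3.72, against 3.89, 4.27 and 3.98 in VENUS-positive MDPs. The 3 Nfkbiz probe sets thus ordered these groups differently. Tnfaip3 in 1433699_PM_at read 4.81 and 4.86 in VENUS-negative against 4.45, 4.50 and 4.37 in VENUS-positive MDPs.

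The subunits other than Rel differed little between the VENUS groups. Nfkb2 read 6.05 and 5.47 in VENUS-negative against 6.24, 5.32 and 5.29 in VENUS-positive MDPs. Relb read 4.41 and 4.61 in VENUS-negative MDPs, just above its 3.98, 4.13 and 4.33 in VENUS-positive ones. Rela read 5.96 and 5.63 in VENUS-negative against 5.37, 5.87 and 5.92 in VENUS-positive MDPs, which overlapped.

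None of these differences was called. Nfkbie differed by -0.79 in 1458299_PM_s_at (95% interval -1.49 to -0.08, adjusted p = 0.257) and by -0.53 in 1431843_PM_a_at (adjusted p = 0.513), with overlapping pools. Nfkbiz differed by 0.83 in 1457404_PM_at (adjusted p = 0.310) but by -0.37 and -0.15 in its other probe sets, so the sets of this gene disagreed in sign. Nfkbia differed by -0.29, Nfkb2 by 0.14, Rela by 0.07, Relb by 0.36 and Tnfaip3 by 0.39 and -0.03, none called. The pools of the 2 VENUS groups did not overlap for 5 of the 12 probe sets, against 27.7% of all probe sets. The Nfkbie sets also disagreed between knockout-labelled and wild-type MDPs, at 0.48 in 1431843_PM_a_at and -0.45 in 1458299_PM_s_at.

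The other subunits and inhibitors had small differences between knockout-labelled and wild-type MDPs. In the knockout-labelled pools Nfkb2 read 5.87, 5.65 and 5.24, Rela 6.52, 5.30 and 5.34, and Relb 4.37, 3.80 and 4.77, each overlapping with the wild-type values given above. Nfkbia read 6.09, 5.67 and 5.97 in knockout-labelled MDPs, with 1 pool inside the wild-type range. Nfkbie read 6.17, 5.81 and 5.14 in 1431843_PM_a_at and 6.66, 7.36 and 6.36 in 1458299_PM_s_at, and Tnfaip3 read 5.02, 3.90 and 4.86 in 1433699_PM_at. The differences were -0.17 for Nfkb2, -0.32 for Rela, -0.12 for Relb, 0.41 for Nfkbia and -0.11 and 0.10 for Tnfaip3. Their 95% intervals lay between -1.0 (Rela) and 1.02 (Nfkbia). Those of Nfkbie reached 1.10 in 1431843_PM_a_at and -1.08 in 1458299_PM_s_at, so changes up to that size are not excluded with 3 pools a group. The erythroid and megakaryocyte list had 4 of its 9 genes lower in knockout-labelled than in wild-type MDPs, against 0.409% of all genes. Its mean in wild-type MDPs was highest in pool 3. Without wild-type pool 3 the count of members called was also 0. Whether the VENUS and the knockout comparisons differ was tested directly, and 0 of the 12 probe sets were called, where 2.35% of all probe sets were. At an unadjusted p under 0.05 there was 1 of 12, against 11.1% of all probe sets. The widest gap was that of Rel, at -1.29 (95% interval -2.74 to 0.16, adjusted p = 0.529). With an interval that wide, the lack of calls does not show that the 2 comparisons agree.

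**Figure D4:**
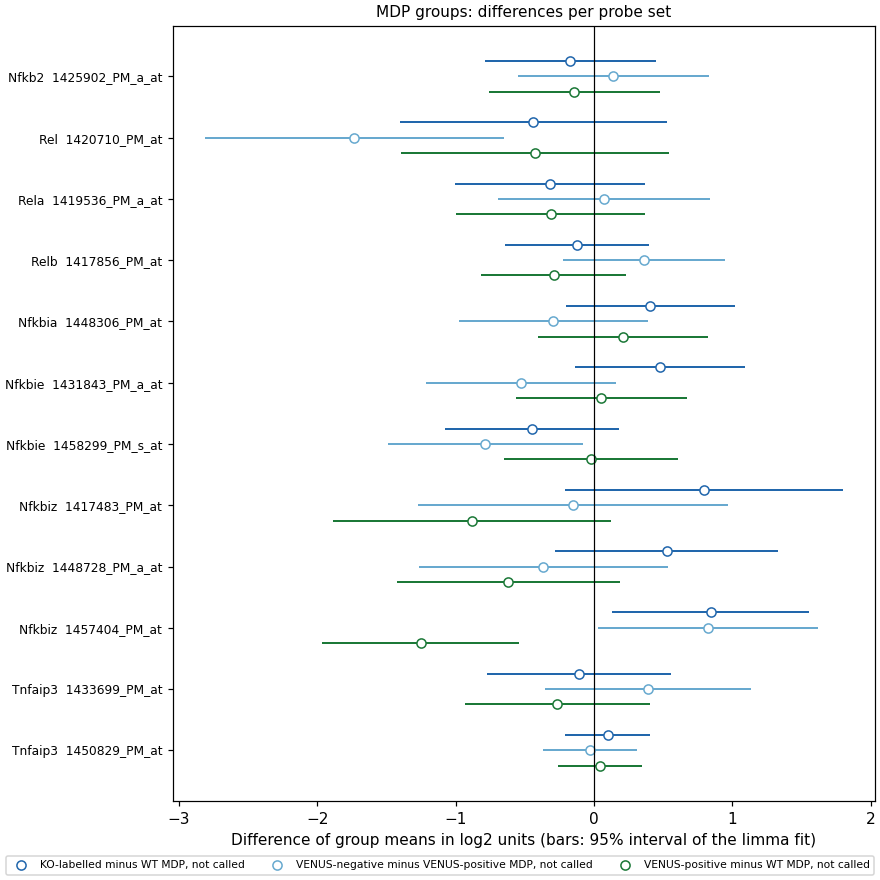
Difference of group means in log2 units (x axis, bars are 95% intervals) for the 12 probe sets (y axis) in the 3 comparisons of MDP groups, with open points because none was called. Rel in VENUS-negative minus VENUS-positive MDPs lies farthest from 0, at -1.73.

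The rest of the pathway was read from 4 lists, each gene by its brightest probe set. Of 12 further inhibitors and cofactors measured, 5 were higher and 1 lower in macrophages than in wild-type MDPs, where 10.9% of 17097 genes were higher and 11.5% lower. In granulocytes 7 were higher and 1 lower, where 21.3% were higher and 22.6% lower. Bcl3, a nuclear IkappaB relative, was at 8.10 in macrophages, 8.68 in granulocytes and 5.47 in wild-type MDPs, with differences of 2.64 (adjusted p = 1.87e-06) and 3.21 (adjusted p = 8.68e-08). Zc3h12a, which encodes the RNase Regnase-1, rose by 1.80 and 2.27, and Pdlim2, whose product helps remove RelA, by 1.54 and 2.92. Both lay within or under the range of array medians in wild-type MDPs, at 3.87 and 4.33, so the size of these differences is uncertain. Otud7b, which encodes the deubiquitinase Cezanne, was lower in macrophages (-1.49) and higher in granulocytes (1.26), and macrophages minus granulocytes differed by -2.75 (adjusted p = 3.90e-06). Between macrophages and granulocytes 1 of the 12 was higher and 2 were lower, where 29.6% of all genes were called.

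Receptors and adaptors that signal to NF-kappaB were mostly higher in mature cells. Of 32 measured, 20 were higher and 1 lower in macrophages than in wild-type MDPs (median 1.25, beside 0.00 over all genes), where 10.9% of all genes were higher and 11.5% lower. In granulocytes 17 were higher and 3 lower (median 1.26, beside 0.10), where 21.3% of all genes were higher and 22.6% lower. Tlr1 (3.44), Nod1 (3.18), Tlr7 (2.92) and Tlr4 (2.81), all sensors of microbial products, had the largest measured differences in macrophages. Tlr4 (4.0), its co-receptor gene Cd14 (3.85), the adaptor gene Myd88 (3.09) and Birc3 (2.94), a ubiquitin ligase gene, had the largest in granulocytes. In wild-type MDPs Tlr1 (3.87) and Cd14 (4.29) lay under every array median, where the level of a dim gene is poorly measured, so the size of their differences is uncertain. Between macrophages and granulocytes 9 were higher and 5 lower, where 29.6% of all genes were called. Il1rap, an interleukin-1 receptor chain, was lower in macrophages (-2.80), and Tlr7 (2.48), Cd40 (2.39) and Tlr1 (2.13) were higher.

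Of the 13 IKK and core kinase genes measured, 4 were higher and 1 lower in macrophages and 4 higher and 2 lower in granulocytes, each against wild-type MDPs, where 22.4% and 43.8% of all genes were called. The 6 of 13 called in granulocytes are near that share. Map3k8, the Tpl2 kinase gene, rose by 2.83 and 2.29, and Map3k14, which encodes the NIK kinase of the alternative pathway, by 2.10 and 1.28. Map3k8 lay under every array median in wild-type MDPs, at 3.95, so the size of its differences is uncertain. Ikbkb, the IKK-beta gene, was at 9.26 in macrophages, 7.20 in granulocytes and 7.25 in wild-type MDPs. Of the 13 kinase genes 3 were higher in macrophages than in granulocytes and 1 was lower, which is near the 29.6% of all genes called there. Ikbkb was among the higher ones and was also higher than in wild-type MDPs (differences of 2.06 and 2.00, adjusted p = 1.37e-05 and 2.30e-05).

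Of 34 textbook NF-kappaB targets, 8 were higher and 2 lower in macrophages than in wild-type MDPs, and 16 were higher and 4 lower in granulocytes. Over all genes 10.9% were higher and 11.5% lower in macrophages, and 21.3% higher and 22.6% lower in granulocytes. The list's median was 0.01 in macrophages and 0.50 in granulocytes, beside 0.00 and 0.10 over all genes. Il1b, the interleukin-1 beta gene, was at 8.58 in macrophages, 12.58 in granulocytes and 4.70 in wild-type MDPs (differences of 3.88 and 7.88). Myc, a growth gene active in progenitors, was lower in both (-3.91 and -5.17). Between the 2 populations 6 targets were higher and 13 lower in macrophages, with Il1b (-4.0), Ccl5 (-3.88), Ier3 (-3.72) and Cxcl2 (-3.14) at the largest differences, where 29.6% of all genes were called. Cxcl2 lay under every array median in macrophages, at 2.42. Ccl5 is also an NK-cell transcript, and the granulocyte pools carried NK-cell genes (above); their part in it was not tested.

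In the progenitors few of these genes passed. Between knockout-labelled and wild-type MDPs, 0 of the 12 inhibitors and cofactors, 0 of the 13 kinases and 0 of the 32 receptors and adaptors were called, where 0.784% of all genes were. Among the targets the chemokine gene Ccl2 was higher (4.72 in knockout-labelled pools, 3.74 in wild-type ones, difference 0.98, adjusted p = 0.0390) and Marcksl1 lower (-0.92, adjusted p = 0.00766). Ccl2 lay under every array median in wild-type MDPs. Between VENUS-negative and VENUS-positive MDPs 0 of the 32 receptors and adaptors were higher and 2 lower, and 1 of the 34 targets was higher and 4 lower, where 5.40% of all genes were called. There the receptor genes Tlr2 (-1.54) and Tnfrsf1a (-0.87) and the targets Ccnd1 (-2.19), Icam1 (-1.83), Marcksl1 (-1.23) and Cd44 (-0.97) were lower, and Ier3 (1.59) was higher. Cd44 completes the count and was chosen after its values were seen. Tlr2 lay under every array median in VENUS-negative MDPs, at 3.87. The test of the difference between these 2 comparisons called 3.12% of all genes. It called 1 of the 32 receptors and adaptors, Tlr2 (-1.95, adjusted p = 0.0236). Of the 12 inhibitors and cofactors it called 1, Tnip1 (-1.09, adjusted p = 0.0335), which encodes an A20-binding inhibitor. Of the 13 kinases and of the 34 targets it called 0. So few calls do not stand out from the share of all genes.

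For each member the genes with the most similar course over the 17 arrays were read by Pearson's r across 17096 other genes. Tnfaip3 was closest to Grk5, a receptor kinase gene (0.98), S1pr5 (0.97) and Gpr35 (0.96). Nfkbia was closest to Efhd2 (0.98), Zbtb7b (0.97) and 1600010M07Rik (0.97). Nfkbie was closest to the interleukin-10 receptor gene Il10ra (0.94), Fam234a (0.93) and Casp1 (0.91), and Nfkbiz to Map3k5 (0.95), Ptprc (0.95) and Klf6 (0.94). Among the subunits, Relb was closest to Polm (0.97), Plekho2 (0.95) and Trafd1 (0.94), and Nfkb2 to Cxcl9 (0.93), P2ry10b (0.91) and Gas2l1 (0.91). Rela was closest to Tprgl (0.92), Rab11a (0.92) and Pfkfb4 (0.90), and Rel to Tm6sf1 (0.87), Psap (0.86) and Alcam (0.85). The arrays cover 6 groups of different cells, so these values are a description.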

How the data were processed

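Each array holds log2 values that the authors computed by RMA in Affymetrix Expression Console, per the submitters' processing notes. No version, genome build or list of the arrays normalized jointly was given in the sources used. RMA corrects background, quantile-normalizes arrays and summarises each probe set. Values ran from 1.69 to 13.5 and array medians from 4.33 to 4.48. No value column was left unmapped, and 0 pairs of arrays were identical. Of all probe sets, 28898 had exactly 1 symbol in the platform annotation, 551 had more than that and 15588 had no symbol. Entrez identifiers left the members' symbols unchanged in a RefSeq table of GRCm38.p6.

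One mean per group was fitted over 17 arrays with limma 3.58.1 in R 4.3.3 (lmFit, eBayes, two-sided; 11 residual degrees of freedom, prior 2.98), tested on simulated data. Adjusted p-values run over all 45037 probe sets. Pools are separate samples per the labels. The p-values rest on the spread between pools within groups, estimated jointly over all 6 groups. The number of arrays limits the precision. Members, gene lists and tests were chosen with earlier results of these data known, so the lists are no independent support. Named genes were all member probe sets, Irf8, up to 4 called genes with the largest difference per list and comparison, and the 3 most similar genes per member. Fos, Csf1r and S100a8 are shown as defining markers. Alternatives were the arrays in the fit, a pool block, an intensity trend, array weights, median centring, repeated quantile normalization, a filter on dim probe sets, 1 probe set a gene (the brightest for each of 17097 genes) and leaving out each pool.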

Additional observations from a re-analysis of the deposited data

How the results depend on the processing

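Over 7 comparisons, 1164 of 1189 values of member probe sets under an alternative kept their side of the threshold, 17 lost a call, 8 gained one, and 0 called differences changed sign; 39 uncalled ones did. The number of member probe sets called was 1 in VENUS-negative minus VENUS-positive MDPs with dim probe sets left out (27703 kept, 11 of 12 members). With 1 probe set a gene, where 8 members remain, it was 3 for macrophages minus granulocytes, 6 for macrophages minus wild-type MDPs and 5 for granulocytes minus wild-type MDPs. Of all 17097 genes 5337, 4038 and 7720 were called there. Leaving out 1 pool gave 4 to 5, 8 to 10 and 6 to 7 in these comparisons and 0 in the others. Pool numbers showed no clear pairing of the arrays, though with 2 or 3 pools a group this check cannot exclude one. Deviations from group means correlated at -0.07 to 0.12 over 17 same-numbered pairs. In each comparison with 3 pairs, 2 of 6 arrays correlated best with their own number. With the pool number as a replicate block the counts were 6, 10 and 8, and 0 elsewhere.

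Quantile normalization again left Nfkb2 uncalled between macrophages and granulocytes (0.84, adjusted p = 0.0599). Rela was called between macrophages and wild-type MDPs with only those arrays (adjusted p = 0.0149) or array weights (0.0319), and Nfkbie 1431843_PM_a_at between granulocytes and wild-type MDPs after quantile normalization (0.0492). The dim Tnfaip3 probe set lost its granulocyte call with only those arrays, array weights and both scalings (adjusted p = 0.0559 to 0.206). The causes were not tested. The count over all probe sets depended on the arrays fitted: with only the groups compared it was 46 against 259 for knockout-labelled minus wild-type MDPs, 536 against 1998 for the VENUS groups and 673 against 1059 for the difference between these comparisons. Array weights gave 395 for the first. Fewer probe sets were tested with 1 a gene, with 155, 1003, 5337, 4038, 7720 and 615 called where any were. Scaling moved the median of all probe sets by at most 0.08 and the share of higher calls by under 10 percentage points.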
